A study of Mus musculus with 27 samples.

Results

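The chromatin-bound small RNAs of mouse cortical neurons were compared with those of mouse embryonic stem cells. mCtx denotes primary cortical neurons (sample type E15D5 in the labels) kept for 5 days on poly-L-lysine, and mESC denotes the E14 embryonic stem cell line grown on gelatin with LIF. The comparison took the 3 mCtx and the 3 mESC chromatin libraries, 6 of the 27 libraries of the series, over all 1013 annotated small RNAs of the deposited table. A line of that table is called an entry here, and 851 entries passed a filter on low values and were tested. The series also holds the nucleoplasm and cytoplasm of both cell types and the 3 fractions of mNPC, a neural progenitor line grown with EGF and FGF, each with 3 libraries. All libraries were made from RNA under 200 nt after rRNA removal, as TruSeq small RNA libraries of 120 to 160 bp with single reads of 100 bp. According to the labels these are biological replicates, but separate cultures are not stated. The p-values below therefore reflect the variation among these libraries, part of which may be technical. A primary cortical culture can hold other cells beside neurons, whereas E14 is an established line.

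Several families of small RNA act in the nucleus or pass through it. MicroRNAs (miRNAs) are cut from hairpins inside longer transcripts, first in the nucleus and then in the cytoplasm, and guide silencing through bases 2 to 8, the seed. Small nucleolar RNAs (snoRNAs) are mostly trimmed from introns of host genes and guide the chemical modification of rRNA and snRNA, the C/D box type by methylation of ribose and the H/ACA box type by pseudouridylation. tRNAs carry amino acids to the ribosome and can be cleaved into fragments, and spliceosomal snRNAs build the machine that removes introns. The miR-290 to miR-295 cluster is known as the leading miRNA cluster of mouse embryonic stem cells, let-7 as a family that accumulates with differentiation, and miR-124, miR-9 and miR-128 as abundant miRNAs of neurons or their progenitors.

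The mature sequences of 18 miRNAs on which the comparison turned are given here. Entries called in opposite directions in some cases carry the same seed, but the calls of miR-93-5p and miR-181d-5p depend on the processing, as given below. They are from RefSeq on GRCm38.p6, written 5′ to 3′, with the seed in capitals.
miR-291a-3p: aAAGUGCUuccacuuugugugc
miR-294-3p: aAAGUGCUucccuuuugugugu
miR-295-3p: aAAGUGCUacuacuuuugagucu
miR-182-5p: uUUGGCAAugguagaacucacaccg
miR-183-5p: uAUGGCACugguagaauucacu
miR-96-5p: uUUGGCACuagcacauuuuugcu
miR-20a-5p: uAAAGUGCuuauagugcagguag
miR-93-5p: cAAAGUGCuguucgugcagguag
miR-181a-5p: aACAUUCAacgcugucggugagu
miR-181b-5p: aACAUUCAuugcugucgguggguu
miR-181c-5p: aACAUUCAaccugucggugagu
miR-181d-5p: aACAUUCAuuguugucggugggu
let-7f-5p: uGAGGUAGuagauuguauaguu
let-7g-5p: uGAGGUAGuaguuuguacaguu
let-7i-5p: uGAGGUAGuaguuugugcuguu
miR-9-5p: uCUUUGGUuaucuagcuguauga
miR-128-3p: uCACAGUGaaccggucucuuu
miR-125b-5p: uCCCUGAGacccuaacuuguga

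The 5 C/D box snoRNAs below were called while listed in each of the 6 libraries, the first 2 higher and the last 3 lower in mCtx chromatin. They are examples and not the 5 largest differences. Their transcript sequences are from GENCODE vM21 on GRCm38, with the letters TGATGA of the C box and CTGA of the D box in capitals wherever they occur. Only the strand of the transcript was searched, and the letter runs can overlap where CTGATGA occurs.
Snord64: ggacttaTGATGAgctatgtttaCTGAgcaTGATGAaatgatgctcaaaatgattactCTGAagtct
Snord98: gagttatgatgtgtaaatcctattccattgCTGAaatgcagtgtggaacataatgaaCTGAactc
Snord69: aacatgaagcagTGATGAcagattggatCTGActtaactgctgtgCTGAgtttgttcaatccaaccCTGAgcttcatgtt
Snord83b: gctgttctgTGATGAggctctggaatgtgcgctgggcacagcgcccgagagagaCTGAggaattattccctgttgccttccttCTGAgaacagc
Snord93: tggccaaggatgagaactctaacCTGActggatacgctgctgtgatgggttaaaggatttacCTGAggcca

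Levels are the authors' RPM, in which every library has the same nominal total, and depth is not given. The listed values summed to between 80.5% and 85.1% of that total in mCtx chromatin and between 73.9% and 82.9% in mESC chromatin. The lowest value above 0 lay between 19.4 and 25.1 RPM in mCtx chromatin and between 45.2 and 54.8 RPM in mESC chromatin, so a level of about 30 RPM could be listed in the neurons and appear as 0 in the stem cells. A 0 was not read as absence. Linear folds are given only for entries above 0 in all 6 libraries, and where a group was at 0 the size of a log2 difference depends on the 1 RPM added before taking logs. RPM are shares of a library, so a rise of abundant RNAs lowers all others, and fewer cells of a type cannot be told apart from less of an RNA per cell. The files also do not tell a full-length snoRNA, tRNA or hairpin from a shorter piece of it. Members of the miR-290 to miR-295 cluster together had 0 RPM in the mCtx libraries, against 19860 to 26370 RPM in the mESC libraries. The neuronal list together had 77800 to 88600 RPM in mCtx, against 52.0 to 325 RPM in mESC. That sum counts every genomic copy of a mature sequence, so a read may enter it more than once. It also includes miR-9, which is a miRNA of progenitors as well. With copies of one mature sequence averaged, 13 of 18 tested entries of the neuronal list were higher in mCtx and 0 lower. In direction, the markers thus fit both labels.

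Chromatin of cortical neurons held mostly miRNA, whereas in chromatin of stem cells snoRNA was the largest class, followed by miRNA and then tRNA. As a share of the listed RPM, miRNAs made up 73.3%, 75.7% and 74.3% in the 3 mCtx libraries, against 27.5%, 24.7% and 30.4% in the 3 mESC libraries. snoRNAs made up 22.0% ± 1.31 in mCtx and 50.4% ± 4.52 in mESC (SD, n = 3 each). tRNAs made up 2.19%, 2.45% and 2.47% in mCtx, against 17.3%, 15.2% and 15.5% in mESC, and tRNA fragments averaged 0.467% in mCtx, against 1.05%, 1.88% and 4.66% in the mESC libraries. Without mESC replicate 3 the fragment difference was -0.997 rather than -2.06 points. The remaining rRNA, which the depletion step was meant to remove, was 0.0168% in mCtx and 1.41% in mESC. The 11 deposited classes were merged to 7 here, with hairpins and arms as miRNA and both kinds of fragment as tRNA fragment. Within each of the 7 the 3 values of the neurons and the 3 of the stem cells did not overlap. The exact two-sided permutation p was 0.1 in each, which is the smallest that 3 libraries against 3 allow, so these shares are a description.

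**Figure D1:**
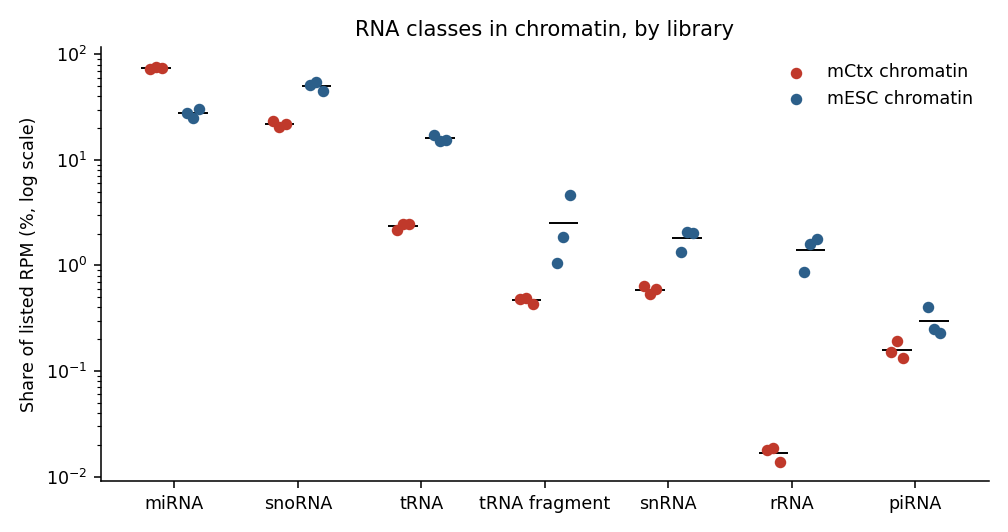
Share of each of the 7 merged RNA classes in the listed RPM (percent, log scale), with a point for each of the 3 mCtx and 3 mESC chromatin libraries. miRNA was the only class higher in mCtx, at a mean of 74.4% against 27.5% in mESC, and the points of both cells did not overlap in any class.

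Of the 851 entries tested, 443 (52.1%) differed between mCtx and mESC chromatin at a Benjamini-Hochberg adjusted p under 0.05 in limma, 194 higher in mCtx (22.8%) and 249 lower (29.3%). These shares are the background against which the families below are read. Another 189 tested entries were at 0 in all 6 libraries and passed the filter through other groups only. Of the 443 calls, 234 had a group that was listed at 0 throughout, 118 of them higher and 116 lower in mCtx. A value above 0 in each of the 6 libraries was held by 262 entries, of which 153 were called, 47 higher in mCtx and 106 lower. The libraries did not overlap in 185 entries that were higher (21.7%) and in 283 that were lower (33.3%).

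Calls by class were mostly higher in mCtx for miRNA and mostly lower for snoRNA and tRNA. Of 418 miRNA entries, 146 were higher in mCtx and 64 lower. Of 196 snoRNA entries, 25 were higher and 84 lower. Of 159 tRNA entries, 3 were higher and 74 lower. Among entries above 0 in all 6 libraries the median log2 difference was 0.53 for miRNA (95 entries), -1.36 for snoRNA (83) and -2.46 for tRNA (71), against -1.32 over all 262, so that of snoRNA was close to that of all entries. Because classes trade places within a fixed total, the same fit was run with every class scaled to its own total in each library, which asks how the makeup of the class differed. On that scale 116 miRNA entries were higher and 94 lower, 24 snoRNA entries were higher and 56 lower, and 18 tRNA entries were higher and 25 lower. With libraries instead centred on the entries that all of them list, the median of all tested moved to 0.73, and 53.9% of the calls were higher rather than 43.8%. Among the families described below, those whose direction depends on this choice are named as such.

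**Figure D2:**
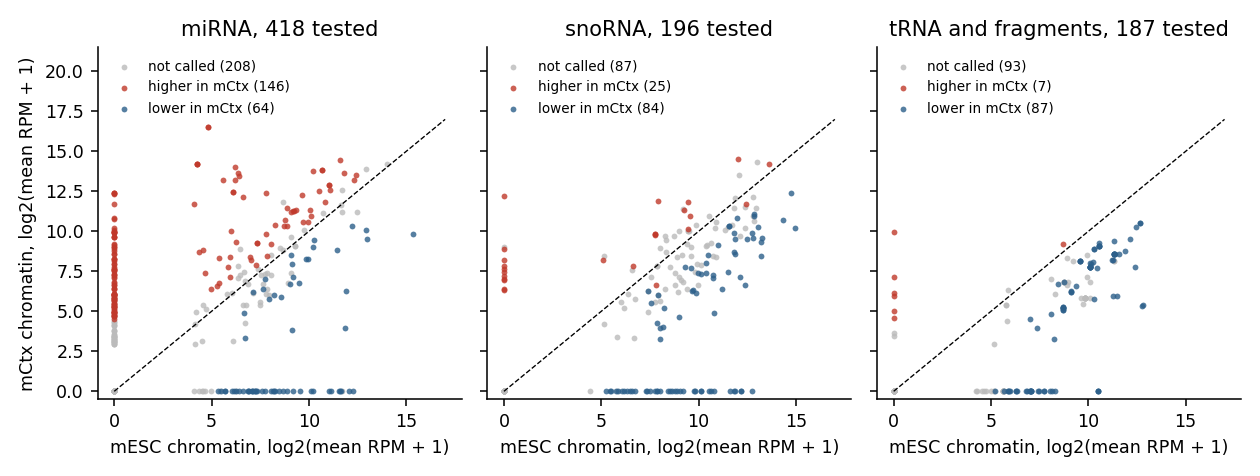
Mean level in mCtx chromatin (vertical axis) against mESC chromatin (horizontal axis), as log2(mean RPM + 1), for each tested entry of miRNA, snoRNA and tRNA; the dashed line marks equal levels. miRNA entries lie on both sides of the line, with 146 called higher and 64 lower, and most called tRNA entries lie under it.

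The let-7 family and its companions were among the clearest gains in neuronal chromatin. let-7i-5p (chr10:122985698-122985719, minus strand) had 13566, 18893 and 17496 RPM in mCtx, against 76.6, 54.2 and 87.7 RPM in mESC. All mCtx libraries thus stood far above all mESC libraries (log2 7.83, SE 0.25, limma adjusted p = 1.33e-16). let-7g-5p, in an intron of Wdr82 (chr9:106178846-106178867, plus strand), averaged 4457 ± 519 RPM in mCtx and 97.3 ± 46.9 RPM in mESC (SD, n = 3 each), 45.8-fold higher (log2 5.62, SE 0.31, limma adjusted p = 1.71e-12). let-7f-5p in an intron of Huwe1 (chrX:151912353-151912374, plus strand) had 13025, 14232 and 11988 RPM in mCtx, against 119.6, 0 and 126 RPM in mESC. Of 17 tested entries of let-7 and miR-98, 14 were higher in mCtx and 0 lower, and the counts were the same with centred libraries and with rescaled classes. The list does not hold let-7j, which was not called with hairpin and arms summed (log2 1.47, SE 0.90, limma adjusted p = 0.183). All 9 mature names that carry the seed GAGGUAG were higher.

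miR-125b-5p, miR-99a-5p and let-7c-5p, which are encoded in clusters with one another or with their paralogs, rose together. miR-99a-5p (chr16:77598940-77598961, plus strand) lies in an intron of the noncoding gene Mir99ahg, and had 1464, 993 and 806 RPM in mCtx, against 0 in all 3 mESC libraries (limma adjusted p = 7.82e-18). let-7c-5p of the same gene had 4421, 6485 and 6290.4 RPM in mCtx, against 132, 0 and 68.5 RPM in mESC (limma adjusted p = 1.26e-06). All 5 tested miRNA entries of Mir99ahg were higher. miR-125b-5p from chromosome 9 (chr9:41581940-41581961, plus strand) had 7479.9, 4049.6 and 4383 RPM in mCtx and 0 in all 3 mESC libraries (limma adjusted p = 5.53e-10). Of the 10 tested entries of miR-125, miR-99 and miR-100, 7 were higher and 0 lower on every scaling. miR-125a-5p, of the same seed as miR-125b, averaged 3729 ± 1711 RPM in mCtx and 399.8 ± 167 RPM in mESC without passing (log2 3.21, SE 1.64, limma adjusted p = 0.113), although the libraries did not overlap. The spread in that fit is shared over 27 libraries, and from the 6 libraries alone its limma adjusted p was 0.00155.

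Neuronal miRNAs rose as a group. miR-9-5p, an miRNA of neural progenitors and neurons, had 14564, 21924 and 20235 RPM in mCtx at the copy in an intron of Gm3764 (chr3:88215613-88215635, plus strand), against 54.2, 0 and 0 RPM in mESC. miR-128-3p, in an intron of R3hdm1 (chr1:128202404-128202424, plus strand), averaged 9355 ± 3192 RPM in mCtx and 71.5 ± 18.4 RPM in mESC (SD, n = 3 each), 131-fold higher (log2 6.99, SE 0.35, limma adjusted p = 2.63e-13). miR-124-3p, the most widely used marker of neurons among miRNAs, had 1053, 914 and 957 RPM at its chromosome 14 copy in mCtx and was listed at 0 in all mESC libraries (limma adjusted p = 2.03e-17). Of 29 tested entries in the neuronal list, 23 were higher and 0 lower. Several of these names have more than 1 genomic copy with the same mature sequence, and with copies averaged 13 of 18 were higher.

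Markers of glia, microglia and blood were low or at 0 in mCtx, but the endothelium and mesenchyme list was not. Among glial miRNAs, miR-338-3p, known from oligodendrocytes, had 75.6, 42.5 and 50.2 RPM in mCtx and 0 in mESC (limma adjusted p = 0.00156; 0.467 with values under a common floor set alike), and the glial list summed to between 50.2 and 75.6 RPM in mCtx. All 3 tested entries of the microglia and blood list were at 0 in mCtx. In mESC the lineage miRNAs miR-150-5p and miR-142a-5p had 239, 217 and 400.0 RPM and 335, 189.8 and 126 RPM. The endothelium and mesenchyme list summed to between 2192 and 2920 RPM in mCtx and between 948.7 and 1536 RPM in mESC, nearly all from miR-143-3p, which averaged 2583 ± 374 RPM in mCtx and 1070.3 ± 282 RPM in mESC (log2 1.30, SE 0.25, limma adjusted p = 0.000127). With rescaled classes miR-143-3p stood at -0.25 and did not pass. On that scale the endothelium and mesenchyme list had 0 higher and 1 lower of 8 tested, against 1 and 0 as deposited. The part of such cells in the neuronal culture was not tested.

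The most abundant single entry of neuronal chromatin was a miR-181. miR-181a-5p, which is processed from clusters on chromosomes 1 and 2, had 85859.6, 95183 and 102690.0 RPM in mCtx at its chromosome 1 copy (chr1:137966468-137966490, plus strand, in an intron of Gm4258), against 81.4, 0 and 0 RPM in mESC (limma adjusted p = 1.18e-08). Its chromosome 2 copy has the same mature sequence and nearly the same values, so a read may be listed at both. miR-181b-5p from chromosome 2 had 5122, 5460.3 and 5883 RPM in mCtx and 0 in all 3 mESC libraries. The members from chromosome 8, in an intron of Nanos3 on the minus strand, were already abundant in mESC. miR-181c-5p (chr8:84178924-84178945) had 10421, 12286 and 11961 RPM in mCtx, against 6317, 3700.1 and 6422 RPM in mESC, 2.11-fold higher (log2 1.12, SE 0.20, limma adjusted p = 6.55e-05). miR-181d-5p (chr8:84178759-84178781) had 697, 675 and 753 RPM in mCtx, against 1227, 1012 and 1430.2 RPM in mESC, and was called lower (log2 -0.77, SE 0.26, limma adjusted p = 0.0152). That call was lost without mESC replicate 3 (limma adjusted p = 0.0689) and with centred libraries, where miR-181d-5p stood at -0.04. The seed ACAUUCA thus had 3 members higher and 1 lower. Of 10 tested miR-181 entries, 7 were higher and 1 lower, or 6 and 1 with rescaled classes, where miR-181c-5p stood at -0.43.

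**Figure D3:**
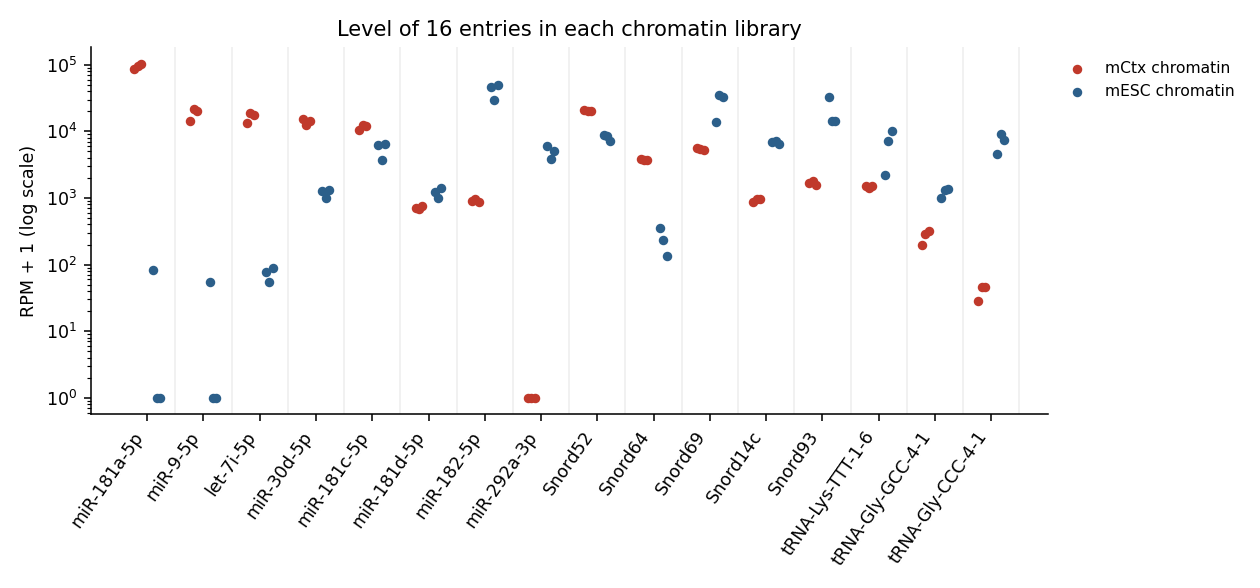
RPM + 1 (log scale) of 16 entries in each of the 3 mCtx and 3 mESC chromatin libraries, a point a library; points at 1 are values listed at 0. In mCtx, miR-181a-5p reached 102690.0 RPM while miR-292a-3p was listed at 0, and for each entry shown the points of mCtx and mESC do not overlap.

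The miR-30 family, which is found in most tissues, was also more abundant in mCtx chromatin. miR-30d-5p (chr15:68341257-68341278, minus strand) had 15573, 12658 and 14123 RPM in mCtx, against 1292, 989 and 1315 RPM in mESC, 11.8-fold higher (log2 3.56, SE 0.15, limma adjusted p = 1.21e-14). miR-30a-5p averaged 22474 ± 2511 RPM in mCtx and 3119.5 ± 778 RPM in mESC (SD, n = 3 each; log2 2.88, SE 0.23, limma adjusted p = 8.73e-10). Of 10 tested miR-30 entries, 5 were higher and 0 lower, and 4 were higher with rescaled classes. Outside the lists, miR-340-5p in an intron of Rnf130 was 23.9-fold higher, at 5327 ± 1041 RPM in mCtx and 223 ± 38.4 RPM in mESC (log2 4.57, SE 0.25, limma adjusted p = 1.5e-12), and miR-26a-5p in an intron of Ctdspl was 9.05-fold higher at its chromosome 9 copy, at 14727 ± 4047 RPM in mCtx and 1627 ± 566 RPM in mESC (log2 3.20, SE 0.36, limma adjusted p = 1.9e-07). miR-22-3p, an abundant entry in both cells, averaged 18740.0 ± 808 RPM in mCtx and 16381 ± 3614 RPM in mESC and did not pass (log2 0.22, SE 0.25, limma adjusted p = 0.545). With rescaled classes miR-22-3p was lower in mCtx by a log2 difference of -1.33 (limma adjusted p = 2.25e-05), and with centred libraries higher by 0.95 (limma adjusted p = 0.000945).

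The miR-15 and miR-16 family, known for restraining the cell cycle, depended on the scaling. miR-16-5p, in an intron of Dleu2 (chr14:61631936-61631957, minus strand), had 6740.3, 7381 and 8652 RPM in mCtx, against 2398, 1821 and 2154 RPM in mESC (log2 1.84, SE 0.21, limma adjusted p = 2.39e-07). miR-15a-5p from the same intron averaged 626 ± 91.6 RPM in mCtx and 158 ± 54.1 RPM in mESC, and miR-15b-5p, in an intron of Smc4, 155 ± 49.8 RPM in mCtx and 183 ± 16.8 RPM in mESC without passing (limma adjusted p = 0.693). Of 9 tested entries, 4 were higher and 0 lower as deposited, but 1 was higher and 3 lower with rescaled classes.

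The miRNAs of the stem cell cluster were the counterpart. miR-292a-3p (chr7:3219238-3219261, plus strand) was listed at 0 in all mCtx libraries and had 5944, 3869.5 and 5134 RPM in mESC (limma adjusted p = 2.11e-20). miR-294-3p (chr7:3220691-3220712, plus strand) was likewise at 0 in mCtx and had 2144, 2404 and 1693 RPM in mESC, and miR-291a-3p of the same seed was at 0 in mCtx and had 1115, 1211 and 1173 RPM in mESC. The other arm miR-292a-5p was at 0 in mCtx and had 5848, 3061 and 3893 RPM in mESC, and miR-293-3p 0 in mCtx and 3316, 2715 and 3458 RPM in mESC. Of 14 tested entries of the cluster, 0 were higher and 9 lower on every scaling, all of them at 0 in mCtx. miR-295-3p, the third carrier of the seed AAGUGCU, was at 0 in mCtx and had 0, 10057 and 0 RPM in mESC. It did not pass (limma adjusted p = 0.0767), and rests on a single library. The miR-302 and miR-367 cluster, another cluster of pluripotent cells, was at 0 in all 6 libraries at its only tested entry.

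The miR-183, miR-96 and miR-182 cluster, best known from sensory cells, was lower at all 4 tested entries, on every scaling. miR-182-5p (chr6:30165962-30165986, minus strand), the most abundant entry of mESC chromatin, had 914, 981 and 864 RPM in mCtx, against 46644, 29289 and 50353 RPM in mESC, 45.8-fold lower in mCtx (log2 -5.48, SE 0.85, limma adjusted p = 1.36e-05). miR-183-5p averaged 74.9 ± 18.6 RPM in mCtx and 3865 ± 697 RPM in mESC, 51.6-fold lower (log2 -5.68, SE 0.26, limma adjusted p = 6.38e-14). miR-96-5p and miR-183-3p were at 0 in mCtx and had 187, 185 and 197 RPM and 105, 145 and 203 RPM in mESC.

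The miR-17 to miR-92 clusters, which promote proliferation, had more entries called lower than higher. miR-92a-3p had 1145, 1156 and 911 RPM in mCtx at its chromosome 14 copy (chr14:115044476-115044496, plus strand), against 10315, 7152 and 6370.1 RPM in mESC, 7.42-fold lower (log2 -2.87, SE 0.37, limma adjusted p = 1.49e-06). This copy overlaps an annotated exon of Mir17hg, as does miR-20a-5p, which averaged 138 ± 35.8 RPM in mCtx and 576 ± 206 RPM in mESC (log2 -2.03, SE 0.32, limma adjusted p = 1.43e-05). miR-25-3p, in the same gene as miR-93, averaged 2371 ± 260.4 RPM in mCtx and 3358 ± 901 RPM in mESC and did not pass (limma adjusted p = 0.145). Of 24 tested entries, 2 were higher and 11 lower, or 7 and 10 with centred libraries and 2 and 17 with rescaled classes. The 2 higher entries were miR-93-5p and miR-17-3p, and miR-17-3p had 75.6, 46.2 and 80.3 RPM in mCtx and 0 in mESC, which did not pass with a common floor (limma adjusted p = 0.0672).

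The arm and the hairpin entry of miR-93 were listed in alternation. The arm, miR-93-5p, which overlaps an exon of Mcm7 (chr5:138165574-138165596, minus strand), had 1604, 1848 and 1981 RPM in mCtx and 0 in all 3 mESC libraries, and was called higher (limma adjusted p = 1.65e-05). Its hairpin entry mir-93 was at 0 in all 3 mCtx libraries and had 3192, 1396 and 2066 RPM in mESC, and was called lower (limma adjusted p = 1.75e-05). With hairpin and arm summed the values overlapped and the log2 difference was -0.22 (SE 0.23, limma adjusted p = 0.481). miR-421-3p and its hairpin mir-421, in an intron of Ftx, alternated in the same way, and their sum was higher by 0.98 on the log2 scale (SE 0.31, limma adjusted p = 0.00972). With every hairpin and its arms summed, 153 entries were higher and 237 lower.

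The imprinted Dlk1-Dio3 domain on chromosome 12, whose maternally expressed noncoding RNAs carry many miRNAs, was mixed. miR-434-3p (chr12:109594565-109594586, plus strand) averaged 2550.0 ± 641 RPM in mCtx and 645 ± 172 RPM in mESC, 3.95-fold higher (log2 1.99, SE 0.31, limma adjusted p = 1.24e-05), and miR-136-3p 2315 ± 305 RPM in mCtx and 541 ± 153 RPM in mESC (log2 2.12, SE 0.23, limma adjusted p = 1.36e-07). With rescaled classes neither was called, at 0.44 for miR-434-3p and 0.58 for miR-136-3p (limma adjusted p = 0.306 and 0.0547). miR-127-3p had 14698, 16143 and 14042 RPM in mCtx, against 6685, 7576 and 9409 RPM in mESC, without passing in the 27-library fit (log2 0.94, SE 1.42, limma adjusted p = 0.702) but with a limma adjusted p of 0.00287 from the 6 libraries alone. miR-431-5p and miR-673-5p went the other way, at 246 ± 59.6 RPM and 82.6 ± 17.3 RPM in mCtx, against 551 ± 77.8 RPM and 199 ± 29.2 RPM in mESC (limma adjusted p = 8.39e-05 and 6.61e-05), and were not called with centred libraries, at -0.45 and -0.54. Of 19 tested entries between Meg3 and Rian, 6 were higher and 4 lower, which became 2 and 5 with rescaled classes. Of 41 in the miR-379 to miR-410 cluster, 8 were higher and 7 lower, which became 12 and 5 with centred libraries and 4 and 10 with rescaled classes. miR-410-3p, called higher at 6082 ± 469 RPM in mCtx and 2165 ± 376 RPM in mESC (limma adjusted p = 2.17e-06), stood at -0.05 with rescaled classes, and miR-381-3p at -0.64.

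**Figure D4:**
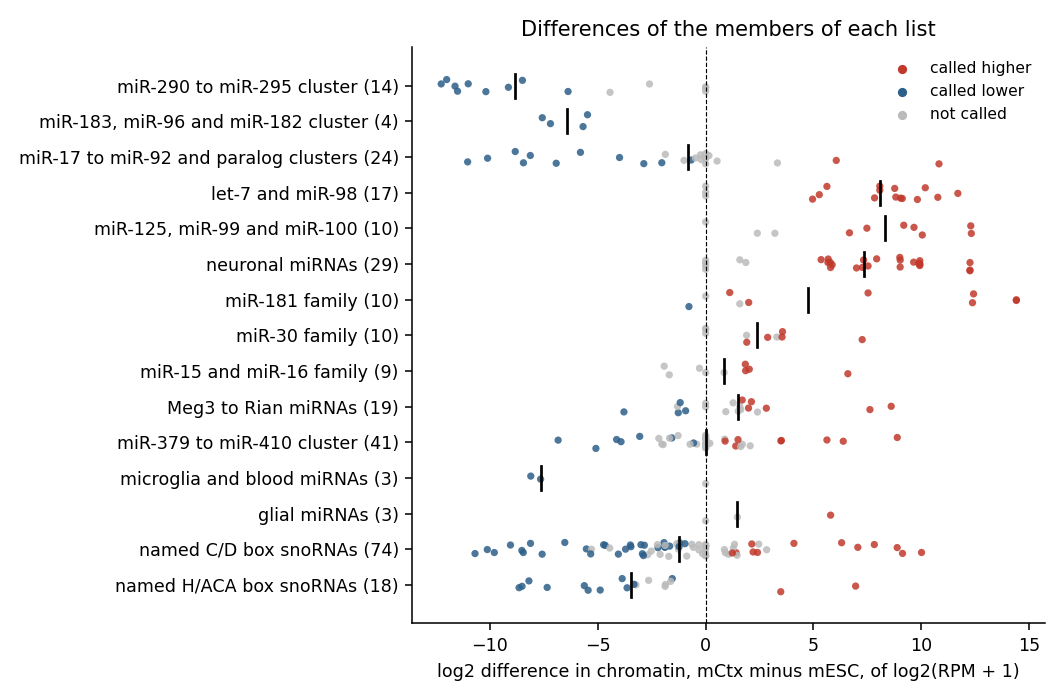
log2 difference of mCtx minus mESC chromatin (horizontal axis) of every tested entry of each list, a point an entry, coloured by its limma call at an adjusted p under 0.05; black bars mark medians, which depend on the added 1 RPM where entries were at 0. The let-7 list has 14 higher and 0 lower, the miR-290 to miR-295 list 0 higher and 9 lower, and the C/D box list calls on both sides.

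Among snoRNAs, C/D box members were called in both directions. Snord64, of the imprinted Snurf-Snrpn domain (chr7:59978808-59978874, minus strand, over an exon of Gm38393), had 3831, 3773 and 3738 RPM in mCtx, against 354, 230.4 and 132 RPM in mESC, 15.8-fold higher (log2 4.09, SE 0.91, limma adjusted p = 0.000659). Snord98, in an intron of Ccar1 (chr10:62765576-62765640, minus strand), averaged 1978 ± 20.1 RPM in mCtx and 757 ± 178 RPM in mESC, and Snord90, in an intron of Rc3h2, 2619 ± 148 RPM in mCtx and 602 ± 123 RPM in mESC (limma adjusted p = 0.00082 and 0.0233). Snord98 was not called with values under a common floor set alike (limma adjusted p = 0.281), and Snord90 not without mCtx replicate 1 or 3 or mESC replicate 3 (limma adjusted p between 0.0505 and 0.0729). Every mCtx library stood above every mESC library in these 3. So did they in Snord52, over an exon of 1110038B12Rik (chr17:34950952-34951017, minus strand), with 20963, 20555 and 20449.7 RPM in mCtx and 8796, 8649 and 7146 RPM in mESC. Snord52 did not pass in the 27-library fit (log2 1.34, SE 1.30, limma adjusted p = 0.442) and did from the 6 libraries alone (limma adjusted p = 0.000125).

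Lower in mCtx were Snord69, Snord93 and Snord83b. Snord69, over an exon of Gnl3 (chr14:31014287-31014366, minus strand), had 5618, 5395 and 5345 RPM in mCtx, against 14022, 35104 and 32582 RPM in mESC (log2 -2.21, SE 0.27, limma adjusted p = 6.46e-07). Snord93, in an intron of 2700038G22Rik (chr5:23852210-23852280, plus strand), had 1692, 1797 and 1565 RPM in mCtx, against 32841, 14377 and 14312 RPM in mESC (log2 -3.49, SE 0.86, limma adjusted p = 0.00181). With rescaled classes Snord93 was at -2.40 and not called (limma adjusted p = 0.38). Snord83b, in an intron of the ribosomal protein gene Rpl3 (chr15:80078498-80078591, minus strand), was 54.8-fold lower, at 89.7, 108 and 95.4 RPM in mCtx and 9920.4, 3036 and 3123 RPM in mESC (log2 -5.53, SE 0.43, limma adjusted p = 5.85e-10). In each of the 3, a single mESC library stood apart from the other two, and every mCtx library was below all of them.

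Of 74 tested C/D box snoRNAs recognised by name, 12 were higher and 29 lower, and the median log2 difference of the 38 above 0 in all 6 libraries was -1.50. With centred libraries 12 were higher and 21 lower, and with rescaled classes 12 and 14, so that within the snoRNA class the losses were fewer and the gains equal in number. Both box motifs at their usual ends, TGATGA in the first 25 bases and CTGA in the last 25, were found in 99 of 195 tested snoRNA entries with a sequence (50.8%) and in 312 of all 1507 GENCODE snoRNA genes (20.7%). They were in 12 of the 25 entries called higher (48.0%), 37 of the 84 called lower (44.0%) and 50 of the 86 not called (58.1%). These letters describe the sequences and do not tell which entries are guides.

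Host genes with several snoRNAs showed members that were called together and members that were not. Snord14c, Snord14d and Snord14e lie on the plus strand within Hspa8, which encodes a chaperone of the heat shock protein family, and overlap exons annotated for some of its transcripts. Snord14c (chr9:40803583-40803668) had 884, 971 and 955 RPM in mCtx, against 7016, 7217 and 6536 RPM in mESC, 7.39-fold lower (log2 -2.88, SE 0.62, limma adjusted p = 0.000476). Snord14d averaged 719 ± 62.3 RPM in mCtx and 5757 ± 507 RPM in mESC, and Snord14e 175 ± 15.7 RPM in mCtx and 2909.6 ± 350.1 RPM in mESC (limma adjusted p = 0.0208 and 4.62e-05). All 3 tested snoRNA entries of Ncl, the gene of nucleolin, were lower, as were 3 of 4 of Nop58, which encodes a core protein of C/D box particles. With rescaled classes the number lower was 1 of 3 for Hspa8, 2 of 3 for Ncl and 1 of 4 for Nop58.

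Within the noncoding host Snhg5 the neighbours parted. Snord50a (chr9:88521529-88521600, minus strand) averaged 902 ± 156 RPM in mCtx and 215 ± 126 RPM in mESC (log2 2.20, SE 0.33, limma adjusted p = 7.4e-06), whereas Snord50b (chr9:88521797-88521868, minus strand) averaged 1274 ± 196 RPM in mCtx and 3019 ± 699 RPM in mESC (log2 -1.23, SE 0.33, limma adjusted p = 0.00337). Snord50b was not called with centred libraries, at -0.50, or with rescaled classes, at -0.14. Snhg1 had 1 entry higher and 3 lower of 8, and Snhg12 had 2 and 2 of 4. In Snhg1, Gm24452 (chr19:8724531-8724602, plus strand) was at 0 in mCtx and had 9224, 5909 and 5709.8 RPM in mESC, Gm25894 was at 0 in mCtx and had 5889, 5078 and 2739.8 RPM in mESC, and Gm22744 had 0, 6942 and 7334 RPM in mCtx and 0 in mESC. Some of these were entries listed unevenly within a group, that is with a 0 beside a value that reached 10 times the highest lower limit of the series, 59.1 RPM. Snord99 of Snhg12 had 21328, 16278 and 18923 RPM in mCtx, against 0, 0 and 37541 RPM in mESC, and was called higher (limma adjusted p = 0.00391) although its mESC values enclose those of mCtx. Snord104, the most abundant snoRNA entry of mCtx chromatin, had 22666, 23042 and 26175 RPM in mCtx and 12513, 0 and 0 RPM in mESC, and Snord49a had 1966, 0 and 1628 RPM in mCtx and 51892, 19924 and 21756 RPM in mESC. From the 6 libraries alone the limma adjusted p of Snord99, Snord104 and Snord49a was 0.118, 0.0708 and 0.0821. Of the tested entries 33 were uneven in this way, 25 of them snoRNAs, and 15 were called. Without them 187 entries were higher and 242 lower.

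H/ACA box snoRNAs were mostly lower. Snora52, over an exon of the ribosomal protein gene Rplp2 (chr7:141448803-141448939, plus strand), had 144, 149.7 and 118 RPM in mCtx, against 1589, 2128 and 1496 RPM in mESC, 12.7-fold lower (log2 -3.64, SE 1.22, limma adjusted p = 0.0165). Snora44 of Snhg12 averaged 80.3 ± 13.4 RPM in mCtx and 835 ± 271 RPM in mESC (limma adjusted p = 6.42e-05), and Snora31, in an intron of Tpt1, 218 ± 34.7 RPM in mCtx and 639.9 ± 97.1 RPM in mESC (limma adjusted p = 0.00253). None of these 3 was called with rescaled classes (limma adjusted p = 0.302 for Snora52, 0.081 for Snora44 and 0.457 for Snora31). Snora52 and Snora31 were also not called with centred libraries (limma adjusted p = 0.061 and 0.0795), nor Snora31 with a common floor (limma adjusted p = 0.204). Of 18 tested members, 2 were higher and 11 lower, or 2 and 8 with rescaled classes. The median log2 difference of the 5 above 0 in all 6 libraries was -1.88. Snora65 of Rpl12 was among the 2 higher, at 74.6, 166 and 150.0 RPM in mCtx and 0 in mESC. Scarna9, a guide for snRNA modification in Cajal bodies, averaged 594 ± 81.1 RPM in mCtx and 686 ± 123 RPM in mESC and did not pass (limma adjusted p = 0.983).

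RNAs that process other RNAs had 1 member called higher and 1 called lower of 5 tested. Snord118, the U8 RNA needed for maturation of the large ribosomal subunit, averaged 1366 ± 17.5 RPM in mCtx and 3340.4 ± 819.9 RPM in mESC, Snord13, the U13 RNA, 1585 ± 248 RPM in mCtx and 7464 ± 983 RPM in mESC, and Rnu7, the U7 RNA that trims histone mRNAs, 207 ± 56.4 RPM in mCtx and 1319 ± 237 RPM in mESC. None of these 3 passed in the 27-library fit (limma adjusted p = 0.364, 0.168 and 0.057), and all did from the 6 libraries alone (limma adjusted p = 0.00269, 0.000116 and 0.000421). The libraries did not overlap in any of the 3. In the same list Rnu73b, in an intron of Rps3a1, was called lower, at 164 ± 28.7 RPM in mCtx and 1310.1 ± 156 RPM in mESC (limma adjusted p = 0.000267; 0.159 with rescaled classes), and Rnu3a, the U3 RNA of rRNA cleavage, was called higher, with a 0 in all mESC libraries.

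Among snRNAs more entries were called higher than lower, yet the class total was lower. Gm23143, annotated only as a predicted snRNA gene (chr4:117202528-117202643, plus strand), had 148, 114 and 143 RPM in mCtx, against 3808, 4843 and 5082 RPM in mESC (log2 -5.07, SE 1.01, limma adjusted p = 0.000233; 0.138 with rescaled classes). Rnu12, the U12 RNA of the minor spliceosome, had 139, 139.5 and 181 RPM in mCtx and 0 in mESC (limma adjusted p = 6.71e-16). Of 25 tested snRNA entries, 13 were higher and 5 lower, or 5 and 5 of 11 from the 6 libraries alone. Rnu2-10, a U2 RNA gene, shares its values of 0, 287 and 333 RPM in mCtx and 0 in mESC with predicted genes, so the 13 amount to 8 distinct profiles. Among rRNA entries, Rn18s-rs5 was at 0 in mCtx and had 2480.1, 8815 and 10600.4 RPM in mESC (limma adjusted p = 6.42e-07); what the depletion step took out of each library cannot be told apart from it.

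tRNA entries called were lower with few exceptions, and fewer were called within the class. tRNA-Gly-CCC-4-1 (chr4:32230250-32230320, plus strand), a glycine tRNA, had 27.7, 44.8 and 45.2 RPM in mCtx, against 4548, 9190.3 and 7312 RPM in mESC, 179-fold lower (log2 -7.42, SE 0.39, limma adjusted p = 6.01e-13). tRNA-Gly-CCC-3-1, named for the same anticodon and with similar values, was 172-fold lower at 41.8 ± 8.14 RPM in mCtx and 7206 ± 2446 RPM in mESC. Their sequences were not compared, and how reads were assigned between them is not known. tRNA-Lys-TTT-1-6 (chr19:12009696-12009768, minus strand), a lysine tRNA, had 1506, 1399 and 1501 RPM in mCtx, against 2231, 7163 and 10125 RPM in mESC (log2 -1.89, SE 0.39, limma adjusted p = 0.000354). As a share of the tRNA class tRNA-Lys-TTT-1-6 stood at 0.75 and did not pass, so the direction turned. tRNA-Lys-TTT-2-1 averaged 61.2 ± 8.74 RPM in mCtx and 2891 ± 1854 RPM in mESC, 47.2-fold lower (limma adjusted p = 1.21e-08). Of lysine tRNA entries 17 of 18 were lower, of glycine 15 of 22, of leucine 11 of 17 and of cysteine 7 of 7. These are counts of gene entries, and copies of one tRNA can have nearly the same values, so they are not independent observations. Of 117 tRNA entries above 0 in any of the 6 libraries, 19 shared all 6 values with another entry. Valine tRNAs had 1 higher and 11 lower of 17, and serine 0 called of 12. With rescaled classes lysine had 1 higher and 2 lower, glycine 2 and 5, valine 8 and 0, leucine 0 and 3, and cysteine 0 and 7. Cysteine tRNAs, with the same number of calls on both scales, summed to 0 RPM in mCtx and 907 RPM in mESC. Histidine tRNAs had 0 higher and 3 lower of 10 as deposited, but 4 and 0 with rescaled classes. Glutamate tRNAs had 0 and 2 of 15 as deposited, and 1 and 0 with rescaled classes. The direction of the calls turned in both.

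Only 3 tRNA entries were higher in mCtx chromatin. tRNA-SeC-TCA-1-1, the selenocysteine tRNA, had 86.6, 61 and 37.7 RPM in mCtx and 0 in mESC (limma adjusted p = 0.0033), and tRNA-Tyr-GTA-6-1 had 58.6, 82.9 and 72.2 RPM in mCtx and 0 in mESC (limma adjusted p = 4.03e-15). Parts of these values lie near the mESC floor, and with a common floor tRNA-SeC-TCA-1-1 was not called (limma adjusted p = 0.112). Of 28 tRNA fragment entries, 4 were higher and 13 lower.

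The difference between the cells was not the same in the other fractions. In cytoplasm 387 entries (45.5%) were called between mCtx and mESC, 179 higher (21.0%) and 208 lower (24.4%), and in nucleoplasm 444 (52.2%), 178 higher (20.9%) and 266 lower (31.3%). Tested directly, the log2 difference of chromatin departed from that of cytoplasm in 361 entries (42.4%) and from that of nucleoplasm in 281 (33.0%). With rescaled classes these numbers were 250 and 210. The counts by class that follow are as deposited, so they include shifts of whole classes. miRNA entries more often had the larger value in chromatin, with 129 above and 41 below the cytoplasmic difference, where all tested entries had 190 above (22.3%) and 171 below (20.1%). tRNA entries had 13 above and 67 below, and snoRNA entries 22 above and 56 below. Among snoRNAs, 25 were higher and 84 lower in chromatin, against 2 and 10 in cytoplasm and 21 and 43 in nucleoplasm. The number of snoRNAs listed in each fraction was not compared.

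Opposite calls were made for 27 entries. Called lower in chromatin and higher in cytoplasm were 18 entries, all tRNAs: copies of Gly-GCC, Val-AAC and Val-CAC and a proline tRNA. The copies had nearly the same differences as one another, so the 18 are not independent observations. tRNA-Gly-GCC-4-1 (chr8:111062561-111062631, plus strand) had 198, 289 and 317 RPM in mCtx chromatin, against 1001, 1324 and 1355 RPM in mESC chromatin (log2 -2.20, SE 0.32, limma adjusted p = 5.68e-06). In cytoplasm tRNA-Gly-GCC-4-1 averaged 1458 ± 114 RPM in mCtx and 477 ± 122 RPM in mESC (log2 1.64). tRNA-Val-CAC-2-1 had 517, 659 and 650.1 RPM in mCtx chromatin and 2754, 1049.7 and 625 RPM in mESC chromatin, which overlap (limma adjusted p = 0.0296, and 0.158 from the 6 libraries alone), and averaged 7355 ± 1768 RPM in mCtx cytoplasm and 3135 ± 1150.3 RPM in mESC cytoplasm. With rescaled classes both tRNAs were positive in chromatin as well, at 0.44 and 1.64.

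Called higher in chromatin and lower in cytoplasm were 9 entries, 8 of them miRNAs. miR-30e-5p, in an intron of Nfyc (chr4:120772660-120772681, minus strand), had 12583, 13471 and 13073 RPM in mCtx chromatin, against 3771, 2652 and 4208 RPM in mESC chromatin (log2 1.91, SE 0.23, limma adjusted p = 6.49e-07). In cytoplasm miR-30e-5p averaged 6640.2 ± 1937 RPM in mCtx and 13622 ± 1153 RPM in mESC (log2 -1.08), and the test of the difference between fractions gave 2.98 (SE 0.33, limma adjusted p = 4.15e-07). With rescaled classes the chromatin difference of miR-30e-5p was 0.36 and did not pass (limma adjusted p = 0.155). The snRNA Rnu12 was among them, and the other miRNAs were miR-130a-3p, miR-140-5p, miR-143-3p, miR-376a-3p, miR-377-3p, miR-421-3p and miR-872-5p. With hairpin and arms summed, the chromatin difference of miR-140 was 0.40 and did not pass (limma adjusted p = 0.209). That of miR-421 was 0.98 when summed, against 8.12 for the arm. The sums of all 8 miRNAs but miR-140 stayed called higher. With rescaled classes miR-143-3p stood at -0.25 and did not pass. The log2 ratio of the miRNA class totals in chromatin, mCtx over mESC, was 1.55. The chromatin differences of miR-130a-3p (1.02) and miR-872-5p (1.16) were smaller, so both rose less than their class as a whole.

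**Figure D5:**
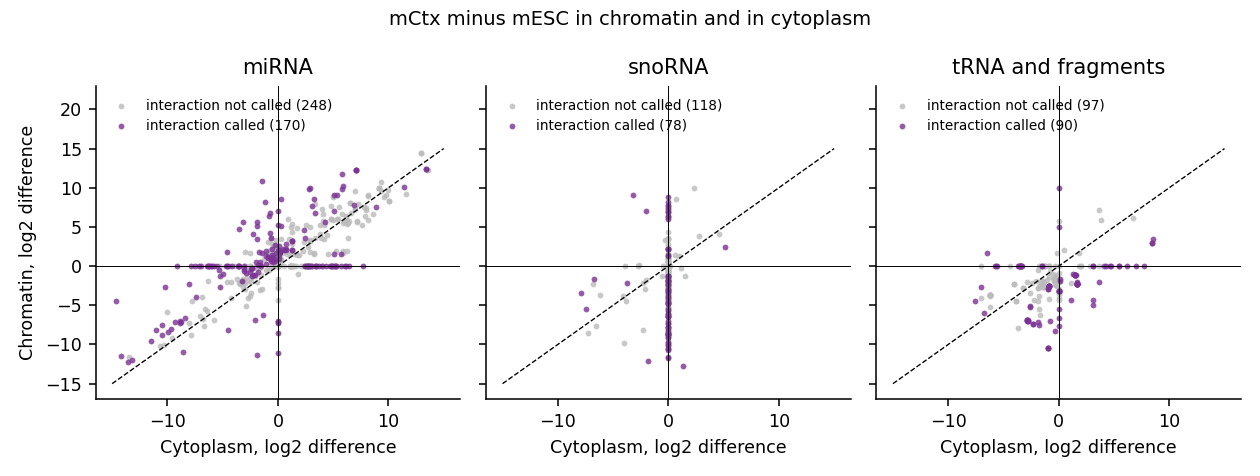
log2 difference of mCtx minus mESC in chromatin (vertical axis) against that in cytoplasm (horizontal axis) for each tested miRNA, snoRNA and tRNA entry; the dashed line marks equal differences. tRNA entries called lower in chromatin and higher in cytoplasm, 18 in number, lie to the lower right in their panel.

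Some of these differences were also seen between progenitor and stem cell chromatin, and others were not. mNPC is a separate line and mCtx a primary culture, so the comparisons do not follow cells over time. The comparisons with mESC share the mESC libraries and are given side by side. Between mNPC and mESC chromatin 382 entries were called (44.9%), 135 higher (15.9%) and 247 lower (29.0%), and between mCtx and mNPC chromatin 237 (27.8%), 136 higher (16.0%) and 101 lower (11.9%). let-7i-5p averaged 72.8 ± 17 RPM in mESC, 25009.9 ± 4815 RPM in mNPC and 16652 ± 2762 RPM in mCtx, and the mCtx to mNPC difference did not pass (limma adjusted p = 0.0996). miR-30d-5p averaged 1199 ± 182, 13563 ± 2578 and 14118 ± 1458 RPM in mESC, mNPC and mCtx. miR-128-3p averaged 71.5 ± 18.4, 167 ± 65.5 and 9355 ± 3192 RPM in the same order, higher in mCtx than in mNPC by 5.84 on the log2 scale (SE 0.35, limma adjusted p = 1.17e-11). miR-124-3p was at 0 in every mESC and mNPC library. miR-292a-3p was at 0 in every mNPC and mCtx library. Snord69 averaged 27236 ± 11513, 22424 ± 4418 and 5453 ± 146 RPM, with a mCtx to mNPC difference of -2.02 (SE 0.27, limma adjusted p = 4.3e-06). tRNA-Gly-CCC-4-1 averaged 7017 ± 2335, 103 ± 13 and 39.3 ± 9.96 RPM, and was called lower in mNPC than in mESC and lower in mCtx than in mNPC.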

How the data were processed

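Small RNA was sequenced from 3 subcellular fractions of mCtx, mNPC and mESC, 3 libraries a group, per the labels. The deposited table holds RPM values that the authors scaled to a common library size. Neither an aligner nor a rule for assigning reads was found in the labels or headers. Whole reads were not recovered, so no counting intervals are given and 3 libraries a group limit the precision. Coordinates were those of GENCODE vM21 (GRCm38) for 286 entries with an Ensembl identifier and differed for 2.

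An entry was tested if 3 or more of the 27 libraries listed 1 RPM or more. The fit was made on log2(RPM + 1) in R 4.3.3 with limma 3.58.1, with a mean for each of 9 groups, 18 residual degrees of freedom, an intensity trend and robust variances. Differences on this scale understate changes of low entries that were listed in every library compared. Where a group had no listed value, the difference depends on the added 1 RPM and can overstate the change, because levels under the lower limit are unknown. Benjamini-Hochberg adjustment ran over all 851 entries. The procedure was tested on simulated data. Shares were compared by exact permutation, and tables and figures were made in Python 3.11.15.

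Alternatives were other pseudocounts, filters, scalings and sets of libraries, copies or hairpins combined, and each replicate left out. Same-numbered mCtx and mESC libraries deviated from their group means with correlations of -0.191, -0.119 and -0.042, so numbers do not pair libraries.

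The lists and the tests were chosen with earlier results of these data known. The naming rule took the 8 largest called differences each way among entries above 0 in all 6 libraries. It also took the 5 most abundant called against a group at 0, and up to 4 abundant members of each list. Added to these were any called against the majority of its list, the 5 most abundant of each group, and hairpin and arm pairs called in opposite directions. Not every entry that the rule took is described, for example not miR-34c-5p, miR-411-5p, Snord107, Snord42b and Snora61. Chosen after their values were seen were miR-124-3p, miR-291a-3p, miR-294-3p, miR-20a-5p, Snord50b, the Snord14 copies, tRNA-Lys-TTT-1-6, tRNA-Gly-GCC-4-1, tRNA-Val-CAC-2-1, tRNA-SeC-TCA-1-1 and tRNA-Tyr-GTA-6-1, and entries with opposite calls in cytoplasm. A further named entry is not reported here.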

Additional observations from a re-analysis of the deposited data

Results flagged for a closer look

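The difference between mCtx and mESC was itself tested for a difference between fractions, in limma with Benjamini-Hochberg adjustment over 851 entries, and passed for 361 entries against cytoplasm and 281 against nucleoplasm. The values that follow are log2 differences in chromatin minus those in cytoplasm for the named entries that passed, and a positive value means a more positive mCtx to mESC difference in chromatin. Entries listed at 0 in a group carry values that depend on the added 1 RPM. The miRNAs named only for opposite calls in cytoplasm are left out.

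Among the miRNAs higher in mCtx chromatin the value was 0.97 for let-7i-5p, 1.35 for let-7g-5p, 3.99 for let-7f-5p, 5.2 for miR-9-5p, 1.88 for miR-128-3p and 1.61 for miR-181c-5p. It was 2.18 for miR-30a-5p, 1.12 for miR-30d-5p, 2.98 for miR-30e-5p, 1.92 for miR-26a-5p, 2.22 for miR-340-5p, 1.61 for miR-16-5p and 2.04 for miR-15a-5p. miR-136-3p had 2.69 and miR-143-3p 2.36. The value was negative for miR-181b-5p (-1.0) and miR-99a-5p (-1.37), both at 0 in all mESC chromatin libraries, so it does not rank their differences between fractions. miR-22-3p, not called in chromatin, had 1.26.

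Among the miRNAs lower in mCtx chromatin, or with the lower value there, it was 1.07 for miR-181d-5p, 1.33 for miR-292a-3p, 1.17 for miR-292a-5p, -2.42 for miR-294-3p and 10.23 for miR-295-3p, whose mESC chromatin values rest on a single library. It was 1.61 for miR-183-3p, 2.89 for miR-96-5p, 1.12 for miR-431-5p, 1.10 for miR-673-5p and 2.94 for miR-150-5p. The alternating arm and hairpin entries had 12.28 for miR-93-5p and -11.03 for mir-93, and 9.30 for miR-421-3p and -7.14 for mir-421.

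Among snoRNAs the value was 12.35 for Snord99, 1.54 for Snord69, 4.41 for Snord93, 1.95 for Snord83b, 1.41 for Snord98, 2.20 for Snord50a and -1.23 for Snord50b. It was -2.88 for Snord14c, -4.05 for Snord14e, -3.32 for Snora44, -1.55 for Snora31, 6.95 for Snora65, -14.05 for Gm24452, -10.25 for Gm25894 and -3.0 for Rnu73b. Rnu12 had 13.67 and Rnu2-10 had 5.52. Among tRNAs it was -5.07 for tRNA-Gly-CCC-4-1, -5.0 for tRNA-Gly-CCC-3-1, -2.65 for tRNA-Lys-TTT-2-1, -3.84 for tRNA-Gly-GCC-4-1 and -2.27 for tRNA-Val-CAC-2-1.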

How the results depend on the processing

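Of 1763 recomputed values for 92 named entries, 1684 kept their direction and side of the threshold, 51 lost and 20 gained the call, and 8 turned direction, all with every class rescaled to its own total: miR-181c-5p to -0.43, miR-22-3p to -1.33, miR-410-3p to -0.05, miR-381-3p to -0.64, miR-143-3p to -0.25, tRNA-Lys-TTT-1-6 to 0.75, tRNA-Gly-GCC-4-1 to 0.44 and tRNA-Val-CAC-2-1 to 1.64. Of 81 called named entries, 48 kept the call in every alternative in which they had a value of their own. Not among the 92 are miR-130a-3p, miR-140-5p, miR-376a-3p, miR-377-3p and miR-872-5p, which were named only for opposite calls in cytoplasm. With hairpin and arms summed, miRNA entries have no such value and are left out of all these counts. The sum for miR-93 was not called (log2 -0.22, limma adjusted p = 0.481), unlike its arm and hairpin entries. Entries of tRNA and fragments called higher numbered 7, but 4 with a common floor, 13 with centred libraries and 23 with rescaled classes, and those called lower 87, but 32 with rescaled classes. The miRNA share exceeded that of mESC by 46.9 points in mCtx, by 40.5 as a share of the nominal RPM total and by 39.6 with copies of a miRNA averaged. The snoRNA difference was -28.4, -20.6 and -22.0 points in the same order, and as a share of that total tRNA stood at -10.4 and tRNA with fragments at -11.9. With each replicate left out in turn, 399 to 424 entries were called, 180 to 189 higher and 216 to 244 lower, with 140 to 147 and 60 to 65 of miRNA, 19 to 28 and 67 to 84 of snoRNA, and 6 to 9 and 72 to 83 of tRNA and fragments. The tests between fractions then called 316 to 345 against cytoplasm and 251 to 292 against nucleoplasm. Share differences then lay between 45.5 and 48.3 points for miRNA, -30.9 and -26.5 for snoRNA, -14.0 and -13.0 for tRNA, -2.80 and -0.997 for fragments, -16.4 and -14.9 for both, -1.47 and -1.10 for snRNA, -1.67 and -1.21 for rRNA and -0.172 and -0.0822 for piRNA. Among named entries, calls depended on a single library for miR-181d-5p, miR-295-3p, Snord90, Snord14d, Snord104, Gm22744 and tRNA-Val-CAC-2-1, with Snord14d at a limma adjusted p of 0.0517 without mCtx replicate 1 and 0.0518 without mESC replicate 1, and Gm22744 at 0.0844 and 0.086 without mCtx replicate 2 or 3. tRNA-Val-CAC-2-1 was at 0.291 without mESC replicate 1 and 0.0934 without mCtx replicate 1, Snord104 at 0.0531 and 0.0516 without mESC replicate 2 or 3, and miR-295-3p, resting on mESC replicate 2, passed at 0.0095 and 0.00899 without mESC replicate 1 or 3. With the replicate block 441 entries were called, 194 higher and 247 lower, although same numbers do not pair mCtx with mESC libraries. Within mESC, same-numbered chromatin libraries deviated together with cytoplasm (correlations of 0.733, 0.294 and 0.626) and nucleoplasm (0.418, 0.249 and 0.525), and within mCtx they did not throughout (-0.491, -0.56 and -0.0223, and 0.413, -0.248 and 0.413). With a replicate block within each cell type the tests between fractions called 365 against cytoplasm and 290 against nucleoplasm. With rescaled classes those tests called 250 against cytoplasm and 210 against nucleoplasm. Copies averaged gave 172 higher and 247 lower, the 6 libraries alone 173 and 251. Copies averaged, uneven entries left out and that block within cell types were added after the data were seen. Depth is unknown, and values under about 55 RPM in mESC cannot be told from 0. The cause of these changes was not tested.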
